A study of Mus musculus with 3 samples.

Results

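Non-dividing monocytes of the newborn mouse liver were taken from 3 single-cell libraries of sorted CD45+ viable cells, made with a probe-based assay on fixed cells. The KO library came from Pex2-/- mice, the library labelled Het from Pex2 heterozygous mice and the library labelled WT from wild-type mice, all at postnatal day 0, and each genotype has 1 library. The sources used here do not give how many animals were pooled for a library, their sex, their strain, or the tissue or cell in which the allele acts. All 3 libraries share the same handling: straining, a slow spin against hepatocytes, red cell lysis, the CD45 sort and fixation. A barcode was a member when at least 4 of 6 monocyte genes (Ccr2, Ms4a6c, Csf1r, Klf4, Fcgr1 and F13a1) had 1 or more UMIs (tags that count each captured molecule once) and when 6 summed levels lay below caps. The caps, in CPM (a gene's UMIs per 1000000 UMIs of the barcode), were 20000 for the neutrophil granule genes Camp, Ngp and Ltf, 5000 for Elane and Prtn3, 4000 for Mmp8 and Mmp9, 3000 for the MHC class II genes H2-Aa, H2-Ab1 and H2-Eb1, 500 for the macrophage genes C1qa, C1qb and C1qc, and 400 for the division genes Mki67 and Top2a. The rule gave 210 members of 8245 barcodes in KO, 285 of 8000 in labelled Het and 255 of 9600 in labelled WT, or 750 of 25845 in all.

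Monocytes are made from progenitors shared with neutrophils, in the liver before birth and in the marrow after it, and leave through the chemokine receptor Ccr2. Classical monocytes enter inflamed tissue, while patrolling monocytes, which arise from them under Nr4a1, Cebpb and the growth factor receptor Csf1r, survey the vessel wall. A neutrophil-like kind carries granulocyte transcripts such as those of S100a8 and Lcn2. Pex2 encodes a membrane protein of the machinery that imports enzymes into peroxisomes, where very long chain fatty acids are shortened and ether lipid synthesis begins.

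The label was checked against the monocyte markers, which the rule used in part, so these levels are a description. Levels throughout are CPM of the UMIs summed over a library's members, given with 95% exact Poisson intervals where shown. The chemokine receptor Ccr2 stood at 536 CPM in KO (513 to 559), 1219 in labelled Het (1187 to 1252) and 1192 in labelled WT (1149 to 1236), and the growth factor receptor Csf1r at 489 CPM in KO (467 to 511), 669.5 in labelled Het (646 to 694) and 771 in labelled WT (737 to 807). The membrane protein gene Ms4a6c stood at 844 CPM in KO, 739.6 in labelled Het and 618 in labelled WT, and the transcription factor Klf4 at 201 CPM in KO, 255 in labelled Het and 401 in labelled WT. Fibronectin, Fn1, and versican, Vcan, which the rule did not use, stood at 7906 CPM in KO, 4977 in labelled Het and 4404 in labelled WT, and at 463 CPM in KO, 1036 in labelled Het and 812 in labelled WT. The high-affinity IgG receptor gene Fcgr1, in the rule, was the lowest of its 6 genes in KO members, at 46.6 CPM in KO, 363 in labelled Het and 254 in labelled WT, while the transglutaminase subunit F13a1 reached 2834 CPM in KO, 2083 in labelled Het and 1458 in labelled WT. All 6 markers given for these cells were present in each library, and each stood higher in members than in the library's other barcodes. In those other barcodes Ccr2 stood at 73.2 CPM in KO, 74.6 in labelled Het and 79.5 in labelled WT.

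Markers of other cell types were looked up in the members as whole lists. Macrophage markers summed to 86.3 CPM in KO, 95.9 in labelled Het and 94.1 in labelled WT over 12 genes, 3 of which the rule capped, most of it Adgre1, and 3, 2 and 4 of the 12 were at 0, Cd163 in every library. The 7 B-lineage markers summed to 97.1, 54.5 and 82.4 CPM and the 4 hepatocyte markers to 4.10, 2.70 and 8.08 CPM in KO, labelled Het and labelled WT members. The 8 dendritic cell markers, 3 of them capped by the rule, summed to 144, 135 and 76.3 CPM, in the same order of libraries, and the 4 stem and progenitor markers to 256, 326 and 253 CPM. Neutrophil markers summed to 27526 CPM in KO, 15224 in labelled Het and 15011 in labelled WT over 12 genes, 7 of which the rule capped, with most of it S100a8, and these values stand again beside the neutrophil-like genes below. Single barcodes carried the natural killer cell gene Gzma in KO, with up to 8946 CPM over the 5 natural killer markers, and basophil genes in labelled Het, with up to 25378 CPM over 5 genes.

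Depth, sex-linked genes and Pex2 set the libraries apart before any comparison. The members' median was 17560 UMIs and 4927 genes in KO, 13862 UMIs and 4301 genes in labelled Het, and 8543 UMIs and 3378 genes in labelled WT, and their UMIs summed to 3903474, 4440378 and 2476642. Pex2 was not detected in KO members, with 0 UMIs, which allows up to 0.769 CPM by a floor of 3 counts, and stood at 64.2 CPM in labelled Het and 24.6 CPM in labelled WT. The library labelled Het therefore held more Pex2 than that labelled WT, against the order of the labels, and both are called by their labels below. The Y-linked genes Ddx3y and Eif2s3y had 0 UMIs in KO and labelled Het members and stood at 134 and 69.4 CPM in labelled WT, so sex and genotype cannot be told apart between the library labelled WT and the others. No full barcode was shared between libraries, although 53 KO, 69 labelled Het and 54 labelled WT members carried a 16-base droplet barcode also seen in another library, under another probe barcode. With 1 library per genotype no difference below has a replicate check or a test, intervals cover counting error only, and labelled Het against labelled WT is the gauge of how far libraries differ.

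Non-dividing monocytes made up 2.55% of KO barcodes (95% Clopper-Pearson interval 2.22 to 2.91), 3.56% of labelled Het barcodes (3.17 to 3.99) and 2.66% of labelled WT barcodes (2.34 to 3.0). This order rested on the rule's caps. The cap on the neutrophil collagenase Mmp8 with the gelatinase Mmp9 alone left out 208 KO barcodes, 7 labelled Het barcodes and 6 labelled WT barcodes. Without that cap the shares were 5.07% in KO, 3.65% in labelled Het and 2.72% in labelled WT. The KO share was 0.715 times the labelled Het share with the cap (0.600 to 0.852) and 1.39 times without it (1.2 to 1.61). Against labelled WT the corresponding ratios were 0.959 (0.801 to 1.15) with the cap and 1.86 (1.60 to 2.17) without it. KO barcodes ran across this cap with no gap, at 3998.67 CPM for the highest inside and 4007.21 CPM for the lowest outside, and 38 KO members lay within 20% below it against 39 KO barcodes within 20% above. In labelled Het and labelled WT 6 and 1 members lay that close below.

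The division cap worked in the same direction. Barcodes that met every other condition but reached 400 CPM of Mki67 and Top2a numbered 521 in KO, 277 in labelled Het and 333 in labelled WT. Members were thus 28.7% of KO monocytes that met the other conditions (25.5 to 32.2), 50.7% of labelled Het monocytes (46.5 to 54.9) and 43.4% of labelled WT monocytes (39.3 to 47.5). With neither side of this cap left out, monocytes were 1.26 times as frequent in KO as in labelled Het (1.14 to 1.40) and 1.45 times as frequent as in labelled WT (1.30 to 1.61). Of the members, 69 in KO, 155 in labelled Het and 129 in labelled WT had UMIs of all 6 monocyte genes, while 31, 36 and 31 had the minimum of 4. The remaining caps left out 5 to 40 KO barcodes, 10 to 64 labelled Het barcodes and 12 to 63 labelled WT barcodes each on their own.

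**Figure D1:**
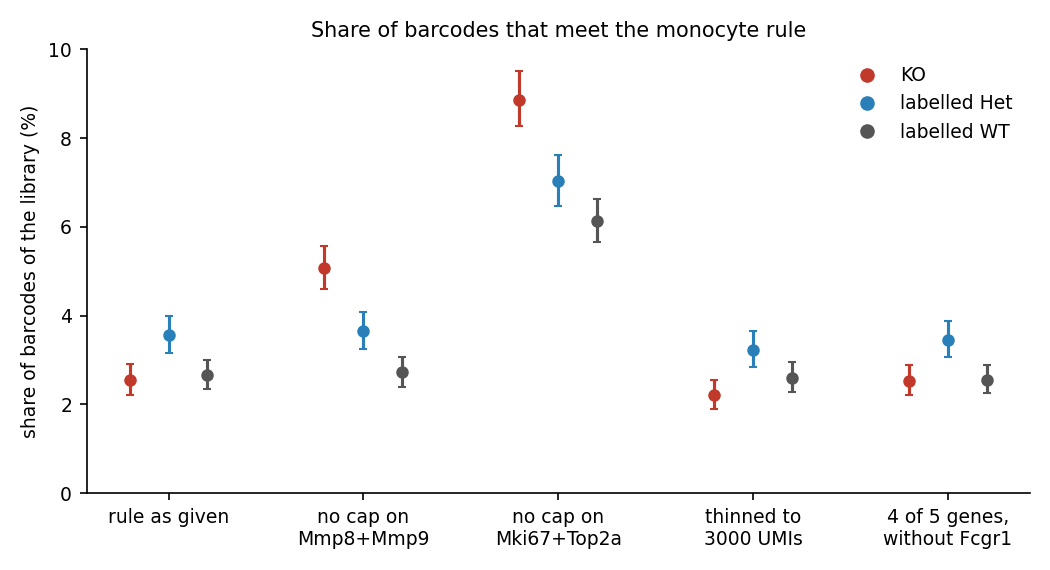
Share of each library's barcodes that met the monocyte rule (y axis, %) under the rule as given and 4 changes to it (x axis), with points for KO, labelled Het and labelled WT and bars for 95% Clopper-Pearson intervals. KO is at 2.55% under the rule as given and at 5.07% without the cap on Mmp8 and Mmp9, while labelled WT moves from 2.66% to 2.72%.

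Of 19059 genes in the deposited tables, 7326 averaged 20 CPM or more over the libraries, with 30 or more UMIs in all members together, and were compared. A gene is called higher, or lower, in KO where its level was at least 1.5 times, or at most 1/1.5 of, that in both other libraries. By this rule 560 genes (7.64% of those compared) were higher and 858 (11.7%) lower in KO, while labelled Het and labelled WT stood 1.5-fold or more apart for 806 genes (11%). Among the calls, 17 genes were at least 4-fold higher and 55 at least 4-fold lower than in both other libraries. The median log2 ratio over all genes compared was -0.03 for KO over labelled Het and -0.04 for KO over labelled WT. Higher calls were 39.5% of all calls, but 47.1% after TMM scaling, which moved the medians to 0.02 and 0.02.

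**Figure D2:**
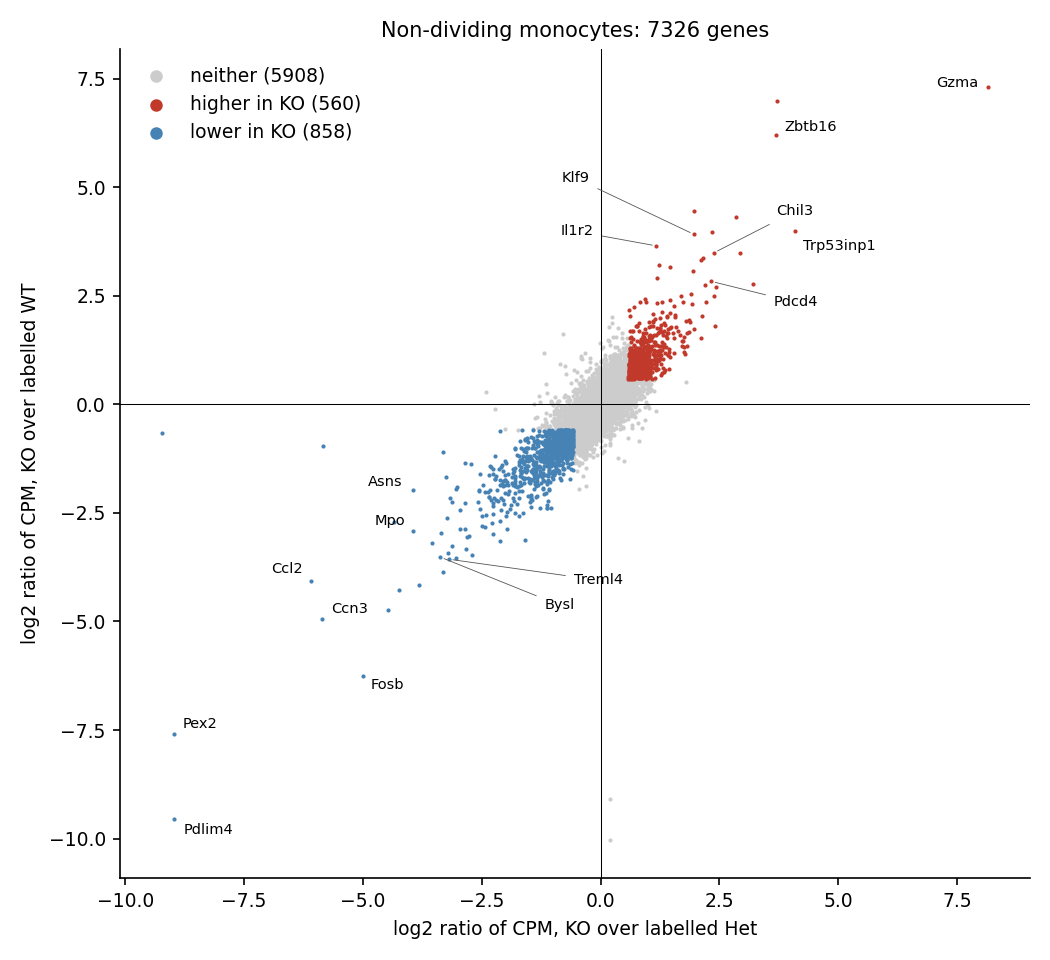
Each point is 1 of the 7326 genes compared in non-dividing monocytes, placed by its log2 ratio of CPM in KO over labelled Het (x axis) and over labelled WT (y axis), both with 0.5 counts added. Red points are the 560 genes higher in KO than in both other libraries and blue points the 858 lower ones. Trp53inp1 lies at 4.08 and 4.0 and Treml4 at -3.20 and -3.56, and the position of Gzma comes from a single barcode.

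Trp53inp1, a p53-induced gene of autophagy and cell death, led the higher genes among those that averaged 50 CPM or more, at 441 CPM in KO (421 to 462), 25.9 in labelled Het (21.4 to 31.1) and 27.5 in labelled WT (21.3 to 34.8). That was 17.0-fold that in labelled Het (14.1 to 20.8) and 16.1-fold that in labelled WT (12.6 to 20.8). At a depth of 3000 UMIs per cell it was seen in 64.4% of KO members, 7.50% of labelled Het members and 8.73% of labelled WT members. B-lineage barcodes, which served as a check for free RNA, carry this gene themselves, in 83.8%, 67.5% and 58.5% of cells. The translation inhibitor Pdcd4 stood at 762 CPM in KO, 152 in labelled Het and 107 in labelled WT, and Ap1s2, a subunit of the clathrin adaptor of endosomes, at 949 CPM in KO, 207 in labelled Het and 141 in labelled WT. For both genes KO lay above the other libraries by more than labelled Het and labelled WT lay apart. Klhl24, Dhrs7 and Crebrf, the last a regulator of the glucocorticoid receptor and of the unfolded protein response, were also among the 15 leading genes, with 253, 394 and 119 CPM in KO, 67.8, 114 and 35.6 CPM in labelled Het and 43.2, 103 and 23 CPM in labelled WT. Abca6, a lipid transporter gene of the ABC family, had 119 CPM in KO, 30.2 in labelled Het and 5.25 in labelled WT, so labelled Het also stood well above labelled WT.

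Among the lower genes Pdlim4, an adaptor of the actin skeleton, had 0 UMIs in KO members, against 64.9 CPM in labelled Het and 96.5 CPM in labelled WT. Set against a floor of 3 counts, KO was at least 84.4-fold lower than labelled Het and at least 126-fold lower than labelled WT. Ccn3, a secreted matrix protein gene, stood at 2.05 CPM in KO, 126 in labelled Het and 66.6 in labelled WT. Gvin1, a giant interferon-inducible GTPase of a family of near-identical copies, whose values are therefore uncertain, stood at 15.6 CPM in KO, 146 in labelled Het and 169 in labelled WT. Aif1, which encodes an actin-bundling protein of macrophages and monocytes, stood at 21.8 CPM in KO, 124 in labelled Het and 130.4 in labelled WT. It was seen in 6.73% of KO members, 25.4% of labelled Het members and 28.6% of labelled WT members at 3000 UMIs, and in at most 0.148% of B-lineage barcodes. Slfn4, of the Schlafen family, stood at 11.5 CPM in KO, 119 in labelled Het and 91.3 in labelled WT.

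Genes of patrolling monocytes were lower in KO. Of 16 such genes 12 were compared, 9 were lower and 0 higher in KO, and the median log2 ratio was -0.88 over labelled Het and -1.34 over labelled WT. Treml4, a receptor that marks patrolling monocytes, stood at 8.45 CPM in KO (5.82 to 11.9), 78.6 in labelled Het (70.6 to 87.3) and 101 in labelled WT (89.2 to 115). Its level in KO was 9.30-fold lower than in labelled Het (6.50 to 13.7) and 12.0-fold lower than in labelled WT (8.32 to 17.8). Ace, angiotensin-converting enzyme, stood at 10.5 CPM in KO (7.54 to 14.2), 86.9 in labelled Het (78.5 to 96.0) and 124 in labelled WT (110.5 to 139), and was 8.28-fold lower than in labelled Het (5.99 to 11.7) and 11.8-fold lower than in labelled WT (8.50 to 16.8). For both genes the KO value lay apart from the other libraries, whose values differed by 1.29-fold and 1.43-fold. Adgre4, an adhesion receptor, stood at 24.6 CPM in KO, 83.8 in labelled Het and 122 in labelled WT.

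The transcription factors of this state followed. Cebpb, which the patrolling state requires, stood at 856 CPM in KO, 2283 in labelled Het and 2539 in labelled WT, and was 2.67-fold lower than in labelled Het (2.56 to 2.77) and 2.97-fold lower than in labelled WT (2.84 to 3.09). Nr4a1, its other required factor, stood at 125 CPM in KO, 212 in labelled Het and 274 in labelled WT. Klf2 stood at 289 CPM in KO, 575 in labelled Het and 839 in labelled WT, and Pou2f2 at 42.8 CPM in KO, 108 in labelled Het and 152 in labelled WT. The integrin Itgal and the tumour necrosis factor receptor Tnfrsf1b were also called lower, at 448 and 420.1 CPM in KO, 706 and 633 CPM in labelled Het and 930.3 and 758 CPM in labelled WT. The members that met neither call were Spn, with 152 CPM in KO, 162 in labelled Het and 193 in labelled WT, Pparg, with 29.7 CPM in KO, 43.2 in labelled Het and 35.1 in labelled WT, and Itga4, with 217 CPM in KO, 270.2 in labelled Het and 426 in labelled WT. Each of these also had its lowest value in KO.

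Few cells carried the patrolling pair. At 3000 UMIs per cell, a UMI of Ace or Treml4 was found in 3.37% of KO members (95% Clopper-Pearson interval 1.36 to 6.81), in 17.9% of labelled Het members (13.6 to 22.9) and in 26.2% of labelled WT members (20.9 to 32.1). The same share was 0.264%, 0.254% and 1.41% in B-lineage barcodes of the 3 libraries, whose median depths were 6137, 8363 and 4786 UMIs. Without thinning, 11.1%, 32.5% and 34.9% of members carried the pair. Thinning left out 2 KO, 5 labelled Het and 3 labelled WT members. Summed per cell, the list's median was 2547 CPM in KO, 4947 CPM in labelled Het and 6299 CPM in labelled WT, and 90% of KO members lay below 4066 CPM. Fewer KO members thus carried a UMI of the pair. Such a share also falls where cells hold less RNA of a gene. Fewer cells of a kind and less RNA per cell were therefore not told apart.

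**Figure D3:**
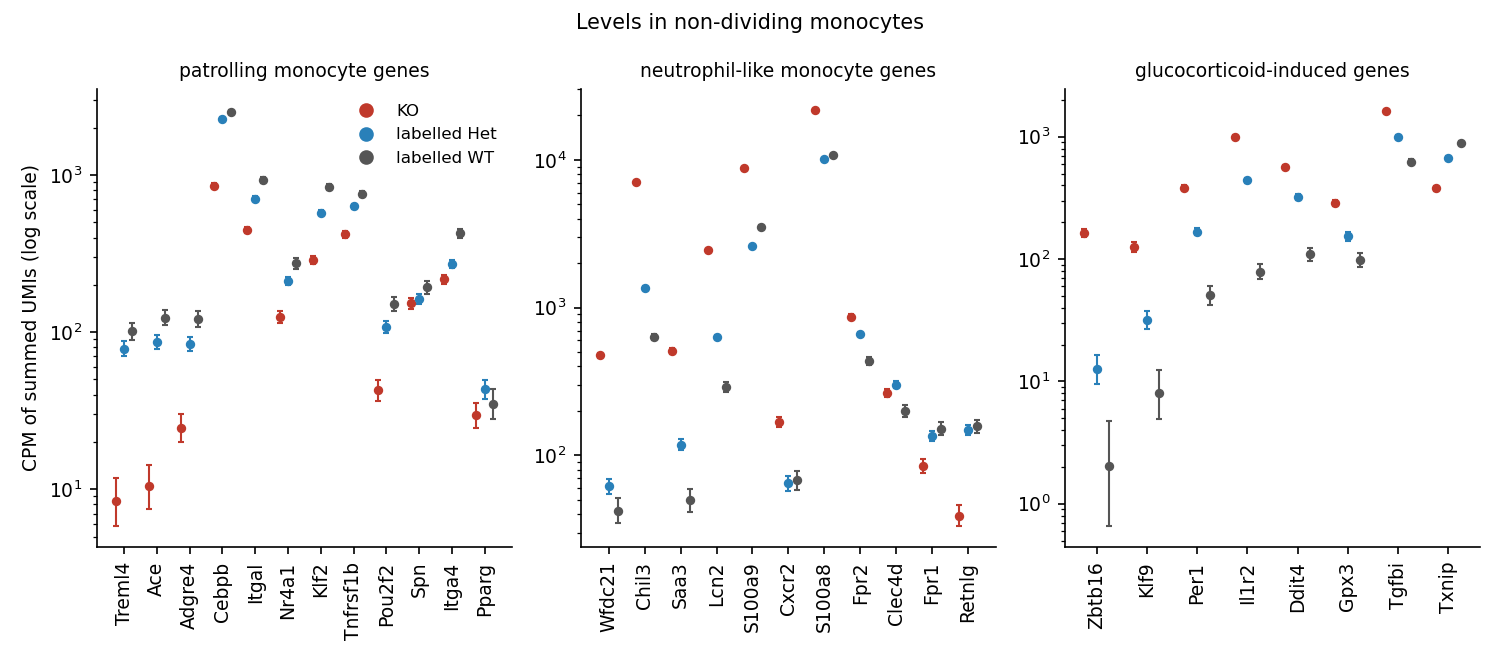
Levels of genes of 3 lists in non-dividing monocytes, as CPM of summed UMIs on a log axis, with points for KO, labelled Het and labelled WT and bars for 95% Poisson intervals. Treml4 and Ace are near 10 CPM in KO and at 78.6 to 124 CPM in the other libraries, while Chil3, Zbtb16 and Klf9 are highest in KO.

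Genes of neutrophil-like monocytes were mostly higher in KO. Of 16 such genes 14 were compared, 8 were higher and 2 lower, with a median log2 ratio of 1.24 over labelled Het and 1.16 over labelled WT. Without Mmp8 and Ltf, whose levels the rule capped, 7 of 12 were higher and 2 lower. Chil3, a chitinase-like lectin also known as Ym1, stood at 7119 CPM in KO (7035 to 7203), 1367 in labelled Het (1333 to 1402) and 632 in labelled WT (601 to 664), and was 5.21-fold that in labelled Het (5.06 to 5.35) and 11.3-fold that in labelled WT (10.7 to 11.9). Saa3, an acute-phase serum amyloid gene, stood at 509 CPM in KO, 118 in labelled Het and 50.1 in labelled WT. The 10% of members with the most Saa3 held 93.7% of its UMIs in KO and all of them in labelled Het and labelled WT, and without thinning 26.9%, 10.0% and 5.95% of members had a UMI of it. Lcn2, which binds bacterial siderophores and so withholds iron, stood at 2441 CPM in KO, 633 in labelled Het and 291 in labelled WT, and the secreted whey acidic protein gene Wfdc21 at 475 CPM in KO, 61.9 in labelled Het and 42.4 in labelled WT. The calgranulins S100a8 and S100a9, subunits of calprotectin, stood at 21648 CPM in KO, 10100.5 in labelled Het and 10721 in labelled WT, and at 8783 CPM in KO, 2597 in labelled Het and 3523 in labelled WT. Cxcr2, the neutrophil chemokine receptor, stood at 169 CPM in KO, 64.6 in labelled Het and 67.8 in labelled WT.

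Other members of this list did not go the same way. Retnlg, a resistin-like gene of neutrophils, and Fpr1, a formyl peptide receptor, were lower in KO, at 39.2 CPM in KO, 149 in labelled Het and 157 in labelled WT, and at 85.1 CPM in KO, 135 in labelled Het and 151 in labelled WT. Fpr2 and Clec4d met neither call, with 871 and 263 CPM in KO, 662 and 301 CPM in labelled Het and 434 and 200.3 CPM in labelled WT. Without the Mmp8 and Mmp9 cap 9 of the list's 14 genes were higher and 0 lower, so Retnlg and Fpr1 were not called lower there. Chil3 has near-identical relatives, so its value is uncertain.

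RNA from neutrophils was present outside neutrophils, and its size was estimated from B-lineage barcodes. In these Chil3 stood at 3910 CPM in KO, 1288 in labelled Het and 853 in labelled WT, Lcn2 at 4838, 2576 and 2037 CPM, and S100a8 at 20646, 12551 and 15694 CPM. The granule genes Ngp and Camp, however, stood in members at 3.66% and 3.51% of their B-lineage level in KO, at 5.06% and 5.07% in labelled Het, and at 9.60% and 9.52% in labelled WT. The rule capped Ngp and Camp in members but not in B-lineage barcodes, so these ratios rest in part on that choice. Members were also deeper, in KO with a median of 17560 UMIs against 6137. The shares that follow are therefore rough estimates and no measure of free RNA. At the Ngp ratio, RNA of the composition found in B-lineage barcodes would make up 2.01% of the members' Chil3 in KO, 4.76% in labelled Het and 12.9% in labelled WT. For Lcn2 the corresponding shares were 7.26%, 20.6% and 67.3%, for Wfdc21 3.83%, 18.2% and 59.5%, for S100a9 8.27%, 28.4% and 43.2%, and for Saa3 at most 0.0325%. For Retnlg they were 84.7%, 18.1% and 58.4%, so that most of the little Retnlg in KO members matched this background. At 3000 UMIs per cell Wfdc21 and Chil3 were seen together in 36.5% of KO members (29.99 to 43.5), 7.50% of labelled Het members and 4.37% of labelled WT members, against 13.3%, 9.39% and 12.4% of B-lineage barcodes. The shares in labelled Het and labelled WT lay below those of B-lineage barcodes, so no expression of the pair is read from them.

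This group of genes is also where the rule's cap acts. The 208 KO barcodes left out by the Mmp8 and Mmp9 cap alone held Chil3 at 13041 CPM, Lcn2 at 5290.1 CPM, S100a8 at 38908 CPM and Saa3 at 1881 CPM, all above the KO members. They held the patrolling genes Treml4 at 10.1 CPM and Adgre4 at 5.82 CPM, and no UMI of Ace. The markers Ccr2, Csf1r and Ms4a6c stood in them at 519 CPM, 399 CPM and 1055 CPM. Summed per cell, the neutrophil-like list had a median of 23196 CPM in KO members, 11877 CPM in labelled Het and 9686 CPM in labelled WT, and in KO 80% of members lay between 3910 and 101999 CPM. The list's levels thus spread widely within each library, and the 3 ranges overlapped.

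Classical monocyte genes were divided. Of 14 compared 3 were higher and 4 lower in KO, or 3 and 3 of 12 outside the rule, with a median log2 ratio of -0.11 over labelled Het and 0.36 over labelled WT. Over all genes compared 7.64% were higher and 11.7% lower. Beside Chil3 and Fn1, the microsomal glutathione transferase Mgst1 was higher, at 526 CPM in KO, 281 in labelled Het and 243 in labelled WT. Beside Ccr2 and Vcan, Plac8 and the interferon-induced Ifi27l2a were lower, at 1205 CPM in KO, 2280.0 in labelled Het and 2084 in labelled WT, and at 127 CPM in KO, 540.3 in labelled Het and 568 in labelled WT. The abundant lysozyme gene Lyz2 met neither call, with 6103 CPM in KO, 7345 in labelled Het and 7966 in labelled WT, nor did haptoglobin, Hp, with 3012 CPM in KO, 2582 in labelled Het and 2528 in labelled WT. The lipopolysaccharide co-receptor Cd14 ranked between the other libraries in KO, at 206 CPM in KO, 273 in labelled Het and 130.4 in labelled WT.

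Calls among precursor genes depended on how members were found. Of 11 monocyte precursor genes compared 1 was higher and 2 lower, or 1 and 2 of 9 outside the rule. Over all genes compared 7.64% were higher and 11.7% lower, so these small counts are not read as a result about the list. When members were found after thinning to 3000 UMIs, 4 were higher and 0 lower, with median log2 ratios of 0.31 over labelled Het and 0.66 over labelled WT. With members limited to under 1000 CPM over the S-phase list, 5 were higher and 0 lower. Without the Mmp8 and Mmp9 cap, by contrast, 2 were higher and 5 lower, with medians of -0.86 and -0.78. Under the rule as given the higher gene was the receptor tyrosine kinase Flt3, of early progenitors and dendritic cells. It stood at 81.2 CPM in KO, 31.8 in labelled Het and 22.6 in labelled WT. The granule enzymes Mpo and Ctsg, made at the promyelocyte and early monocyte stage, were lower, at 139 CPM in KO, 2138 in labelled Het and 1054 in labelled WT, and at 25.1 CPM in KO, 252 in labelled Het and 53.7 in labelled WT, but Ctsg was higher in KO than in both other libraries when members were found after thinning, and the log2 ratio of Mpo was then -0.20 over labelled Het and 0.39 over labelled WT. The 10% of members with the most Mpo held 81.9% of its UMIs in KO, 95.7% in labelled Het and 94.4% in labelled WT, and without thinning 37.5%, 44.3% and 42.1% of members had a UMI of it. The primary granule genes Prtn3 and Elane, which the rule capped, stood at 497 and 134 CPM in KO, 692 and 190.5 CPM in labelled Het and 711 and 166 CPM in labelled WT. Of 7 dendritic-like monocyte genes compared, Flt3 was higher, and the transcription regulators Cbfa2t3 and Batf3 were lower, at 26.6 CPM in KO, 129 in labelled Het and 212 in labelled WT, and at 17.4 CPM in KO, 38.7 in labelled Het and 71.9 in labelled WT.

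Genes of macrophage maturation were lower or met neither call. Of 11 compared 5 were lower and 0 higher in KO. The transcription factor Maf stood at 97.9 CPM in KO, 196 in labelled Het and 221 in labelled WT. The receptor Axl, which binds dying cells, stood at 40.0 CPM in KO, 103 in labelled Het and 148 in labelled WT, and the BMP-responsive inhibitor Id1 at 167 CPM in KO, 361 in labelled Het and 522 in labelled WT. The lysosomal glycoprotein Cd68 was also lower, at 148 CPM in KO, 322 in labelled Het and 236 in labelled WT. Apoe, the lipid carrier, met neither call, with 4626 CPM in KO, 4052 in labelled Het and 5535 in labelled WT.

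Of 13 genes of lipid-associated macrophages compared, 5 were lower and 1 higher in KO, where 11.7% of all genes compared were lower and 7.64% higher. The lipid droplet coat gene Plin2 stood at 188 CPM in KO, 754 in labelled Het and 579 in labelled WT, and lipoprotein lipase, Lpl, at 8.20 CPM in KO, 49.1 in labelled Het and 32.7 in labelled WT. The lipid-sensing receptor Trem2 stood at 9.73 CPM in KO, 27.2 in labelled Het and 50.9 in labelled WT, and the tetraspanin Cd9 at 36.9 CPM in KO, 117 in labelled Het and 99.7 in labelled WT. The fatty acid chaperone Fabp5 was the remaining lower gene, at 80.2 CPM in KO, 246 in labelled Het and 168 in labelled WT. Gpnmb, a glycoprotein of macrophages with loaded lysosomes, went the other way, at 127 CPM in KO, 83.3 in labelled Het and 27.9 in labelled WT, and labelled Het stood 2.99-fold above labelled WT. Scavenger and phagocytosis receptors had 7 of 17 lower and 0 higher in KO. Among these Msr1, the class A scavenger receptor, stood at 245 CPM in KO, 655 in labelled Het and 464 in labelled WT. Cd300a, an inhibitory receptor for lipids of dying cells, stood at 226 CPM in KO, 477 in labelled Het and 603 in labelled WT, and Cd300lb at 31.5 CPM in KO, 79.7 in labelled Het and 136 in labelled WT. The Cd300 family has close copies, and its values are uncertain.

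Myeloid transcription factors had 6 of 25 lower and 0 higher, none of the 6 used by the rule, among them Cebpb, Klf2, Maf, Nr4a1 and Batf3. The monocyte factor Irf8 met neither call, with 364 CPM in KO, 459 in labelled Het and 746 in labelled WT. Receptors for growth factors and cytokines had 5 of 23 lower and 2 higher, where 11.7% of all genes compared were lower and 7.64% higher. The count of higher genes was near that share. The interleukin 1 decoy receptor Il1r2 was higher, at 992 CPM in KO (961 to 1024), 441 in labelled Het (421 to 460.5) and 78.7 in labelled WT (68.1 to 90.6), and labelled Het stood 5.59-fold above labelled WT. Flt3 was the other higher gene. The shared beta chain of the receptors for GM-CSF, interleukin 3 and interleukin 5, Csf2rb, stood at 372 CPM in KO, 692 in labelled Het and 567 in labelled WT, and its near-identical copy Csf2rb2, whose value is uncertain, at 66.6 CPM in KO, 149 in labelled Het and 158 in labelled WT. The alpha chain Il3ra stood at 75.6 CPM in KO, 124 in labelled Het and 159 in labelled WT, and the interleukin 4 receptor Il4ra at 139 CPM in KO, 301 in labelled Het and 252 in labelled WT.

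Chemokine receptors and adhesion molecules had 9 of 24 lower and 3 higher in KO, or 8 and 3 of 23 without Ccr2, which the rule used. Over all genes compared 11.7% were lower and 7.64% higher. Cxcr4, which holds immature cells in the marrow, was higher, at 472 CPM in KO, 195 in labelled Het and 132 in labelled WT, as were Cxcr2 and the junctional adhesion molecule Jaml. Jaml stood at 448 CPM in KO, 248 in labelled Het and 231 in labelled WT. The lower genes included Ccr2 and the complement receptors C5ar1, at 172 CPM in KO, 561 in labelled Het and 493 in labelled WT, and C3ar1, at 13.3 CPM in KO, 61.9 in labelled Het and 42.0 in labelled WT. The chemerin receptor Cmklr1 stood at 31.3 CPM in KO, 112 in labelled Het and 93.3 in labelled WT, and the vascular adhesion molecule Pecam1 at 6.92 CPM in KO, 34.9 in labelled Het and 19.0 in labelled WT. Cytokines and chemokines were low in all libraries, and 11 of 29 were compared, of which 6 were lower and 0 higher. Ccl2, the ligand of Ccr2, stood at 0.769 CPM in KO, 61.3 in labelled Het and 14.9 in labelled WT. Interleukin 1 beta, Il1b, stood at 4.36 CPM in KO, 34.9 in labelled Het and 32.7 in labelled WT, tumour necrosis factor, Tnf, at 13.6 CPM in KO, 37.4 in labelled Het and 63.0 in labelled WT, and the inflammasome product Il18 at 60.2 CPM in KO, 152 in labelled Het and 128 in labelled WT. Ccl2 had 3 UMIs in KO members, a ratio of 0.0125 to labelled Het (0.00257 to 0.0371).

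Pattern recognition receptors had 7 of 22 lower and 3 higher, where 11.7% of all genes compared were lower and 7.64% higher. The RNA sensors Tlr7 and Tlr8 were higher, at 139 CPM in KO, 88.1 in labelled Het and 59.4 in labelled WT, and at 91.2 CPM in KO, 58.6 in labelled Het and 39.2 in labelled WT, and the DNA sensor Tlr9 lower, at 21.8 CPM in KO, 47.3 in labelled Het and 73.5 in labelled WT. The cytosolic sensors of bacterial wall peptides Nod1 and Nod2 and the adaptor Myd88 were lower, with 16.4, 15.4 and 197 CPM in KO, 37.8, 30.9 and 391 CPM in labelled Het and 50.5, 50.9 and 454 CPM in labelled WT. Dectin-2, Clec4n, stood at 38.9 CPM in KO, 183 in labelled Het and 89.2 in labelled WT. Of the Fc receptor and complement genes 5 of 14 were lower and 1 higher, or 4 and 1 of 13 without Fcgr1, which the rule used. Complement C3 was higher, at 517 CPM in KO, 213 in labelled Het and 163 in labelled WT, while factor B, Cfb, and properdin, Cfp, both of the alternative pathway, were lower, at 17.7 CPM in KO, 66.7 in labelled Het and 94.1 in labelled WT, and at 254 CPM in KO, 427 in labelled Het and 583 in labelled WT. Genes of MHC class I and of class II presentation had 1 of 13 and 1 of 10 lower, close to the background share.

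Interferon-stimulated genes had 9 of 18 lower and 0 higher, with a median log2 ratio of -0.59 over labelled Het and -1.04 over labelled WT. Irf7, the factor that amplifies interferon responses, stood at 26.4 CPM in KO (21.5 to 32.0), 106 in labelled Het (96.3 to 116) and 156 in labelled WT (141 to 173), and was 4.0-fold lower than in labelled Het (3.23 to 5.00) and 5.92-fold lower than in labelled WT (4.75 to 7.43). The nucleic acid sensor Zbp1 stood at 15.9 CPM in KO, 69.4 in labelled Het and 103 in labelled WT, and Oasl2 at 4.61 CPM in KO, 26.8 in labelled Het and 32.7 in labelled WT. Tetherin, Bst2, and the 2'-5' oligoadenylate synthetases Oas1a and Oas3 stood at 97.9, 13.1 and 19.5 CPM in KO, 341, 55.9 and 46.6 CPM in labelled Het and 269, 46.8 and 42.4 CPM in labelled WT. The Oas family has close copies, and its values are uncertain. The antiviral surface protein Ly6e was lower by less, at 1974 CPM in KO, 2942 in labelled Het and 3439 in labelled WT and within 1.5-fold of labelled Het, so it met neither call. The same list had a median of -0.20 and -0.60 over labelled Het and labelled WT in all other barcodes. In dividing monocytes, which met the rule but for the division cap, its medians were -0.80 and -1.64, further from 0 than in the members.

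The lower genes Bst2, Oas1a and Oas3 carry 2 copies of the sequence GAAA with any 2 bases between them, a core of the interferon-stimulated response element to which interferon factors bind, within 250 bases before their start. The motif was chosen after the values were seen and was searched on both strands, as GAAA, 2 bases and GAAA or as TTTC, 2 bases and TTTC, in RefSeq promoters of GRCm38.p6, which 5940 of the 7326 genes compared matched. It was present in 3 of the 6 lower genes of the list that matched a promoter, in 5 of 12 of the list's genes compared (41.7%), and in 3.04% of 27025 promoters in all. Of the 5 the others, Stat2 and Irgm1, met neither call. Over all genes with a matched promoter, 2.525% of those compared and 2.78% of those lower in KO held the motif. Stretches of 60 bases around the match are shown on the gene's strand, with the match in capitals.
Oas1a, chr5:120907526-120907585, minus strand: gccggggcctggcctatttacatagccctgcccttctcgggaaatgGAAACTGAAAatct
Oas3, chr5:120777700-120777759, minus strand: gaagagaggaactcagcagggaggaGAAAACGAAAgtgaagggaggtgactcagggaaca
Bst2, chr8:71537562-71537621, minus strand: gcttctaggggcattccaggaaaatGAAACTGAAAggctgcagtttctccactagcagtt
A match is a description of the sequence and says nothing of binding in these cells.

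Genes of AP-1 and other immediate early genes had 11 of 19 lower and 0 higher in KO, with a median log2 ratio of -0.99 over labelled Het and -1.08 over labelled WT. Fosb, a dimer partner of the Jun proteins, stood at 0.512 CPM in KO, 20.5 in labelled Het and 48.9 in labelled WT, from 2 UMIs in KO. Fos, Jun and Junb stood at 284, 65.1 and 117 CPM in KO, 557, 140.1 and 268 CPM in labelled Het and 529.8, 138 and 313 CPM in labelled WT. The RNA-destabilising protein gene Zfp36 stood at 424 CPM in KO, 866 in labelled Het and 1013 in labelled WT, and Ier5 at 32.8 CPM in KO, 91.4 in labelled Het and 149 in labelled WT. Dusp6, the phosphatase that ERK signalling induces to restrain ERK, stood at 102 CPM in KO (91.9 to 112), 716 in labelled Het (691 to 741) and 839 in labelled WT (804 to 876), and was 7.04-fold lower than in labelled Het (6.34 to 7.83) and 8.25-fold lower than in labelled WT (7.41 to 9.21), and its relative Dusp5 stood at 16.4 CPM in KO, 87.8 in labelled Het and 96.1 in labelled WT. In all other barcodes the list's medians were -0.28 and -0.61, and in dividing monocytes they were -0.73 and -0.81.

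Glucocorticoid-induced genes had 10 of 16 higher and 1 lower in KO, with a median log2 ratio of 0.76 over labelled Het and 1.5 over labelled WT. Zbtb16, a transcription factor also known as PLZF, stood at 163 CPM in KO (151 to 177), 12.6 in labelled Het (9.53 to 16.4) and 2.02 in labelled WT (0.656 to 4.71), and Klf9 at 125 CPM in KO (114 to 137), 32.0 in labelled Het (26.9 to 37.7) and 8.08 in labelled WT (4.93 to 12.5). The clock gene Per1, the receptor co-chaperone Fkbp5 and the leucine zipper protein gene Tsc22d3 stood at 383, 690.4 and 638 CPM in KO, 168, 423 and 356 CPM in labelled Het and 50.9, 145 and 233 CPM in labelled WT. The matrix protein Tgfbi stood at 1618 CPM in KO, 995 in labelled Het and 626 in labelled WT, and the plasma glutathione peroxidase Gpx3 at 287 CPM in KO, 153 in labelled Het and 98.5 in labelled WT. Txnip, an inhibitor of thioredoxin, was the lower gene, at 378 CPM in KO, 665 in labelled Het and 889 in labelled WT.

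For this list the other libraries were not alike, since labelled Het and labelled WT stood 1.5-fold or more apart for 12 of its 16 genes, against 11% of all genes compared. The order KO, labelled Het, labelled WT held for Zbtb16, Klf9, Per1, Fkbp5, Tsc22d3, Tgfbi and Gpx3. At 3000 UMIs Zbtb16 or Klf9 was seen in 52.9% of KO members (45.9 to 59.8), 14.6% of labelled Het members (10.7 to 19.3) and 2.78% of labelled WT members (1.12 to 5.64), against 4.08%, 2.03% and 2.66% of B-lineage barcodes, so the labelled WT share lay close to that of B-lineage barcodes. Without thinning the shares were 89.9%, 36.4% and 8.73%. Summed per cell, the list's median was 6922 CPM in KO, 4303 CPM in labelled Het and 3021 CPM in labelled WT. The medians of the log2 ratio were 0.57 and 1.13 in all other barcodes. In dividing monocytes they were 0.76 and 1.55, close to those of the members.

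Transcripts of the mitochondrial genome had 10 of 13 higher and 0 lower in KO, with a median log2 ratio of 1.26 over labelled Het and 1.35 over labelled WT. They encode core subunits of the respiratory chain. mt-Nd1, of complex I, stood at 485 CPM in KO (464 to 508), 128 in labelled Het (118 to 139) and 97.3 in labelled WT (85.4 to 110.4), and mt-Atp6, of ATP synthase, at 817 CPM in KO, 221 in labelled Het and 218 in labelled WT. mt-Co2 and mt-Co3, of cytochrome oxidase, stood at 1085 CPM in KO, 429.7 in labelled Het and 336 in labelled WT, and at 537 CPM in KO, 193 in labelled Het and 156 in labelled WT. By contrast, nuclear genes of oxidative phosphorylation had 0 of 27 called in either direction, with a median log2 ratio of 0.13 over labelled Het and 0.09 over labelled WT. The complex III subunit Uqcrc1, for example, stood at 568 CPM in KO, 554 in labelled Het and 587 in labelled WT. Free RNA could not be gauged for the mitochondrial genes, because B-lineage cells express them too. B-lineage barcodes also had more of both in KO, with mt-Nd1 at 807 CPM in KO, 249 in labelled Het and 130 in labelled WT. There mt-Atp6 stood at 1329 CPM in KO, 464 in labelled Het and 303 in labelled WT. In all other barcodes the list's medians were 0.69 and 1.12.

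Genes of peroxisomes, the organelle in which Pex2 acts, were for the most part within 1.5-fold. Leaving out Pex2, the targeted gene, of 17 biogenesis genes compared 3 were higher and 0 lower, with a median log2 ratio of 0.27 over labelled Het and 0.08 over labelled WT. Abcd2, a transporter of very long chain acyl groups into peroxisomes, stood at 249 CPM in KO (234 to 265), 138 in labelled Het (127 to 149) and 139 in labelled WT (125 to 154). Pex3, which inserts membrane proteins, stood at 35.6 CPM in KO, 20.5 in labelled Het and 17.8 in labelled WT, and Mff, a receptor of the fission enzyme, at 132 CPM in KO, 79.7 in labelled Het and 56.5 in labelled WT. Of 27 peroxisomal enzymes 4 were higher and 0 lower, where 7.64% of all genes compared were higher and 11.7% lower. Crot, which exports shortened fatty acids as carnitine esters, stood at 62.8 CPM in KO, 23 in labelled Het and 27.1 in labelled WT, and the NADPH-forming Idh1 at 191 CPM in KO, 86.3 in labelled Het and 73.5 in labelled WT. The long chain acyl-CoA synthetase Acsl1 stood at 185 CPM in KO, 109 in labelled Het and 106 in labelled WT, and the isomerase Eci2 at 112 CPM in KO, 72.1 in labelled Het and 53.3 in labelled WT. The abundant peroxiredoxin Prdx5 met neither call, with 984 CPM in KO, 1226 in labelled Het and 1746 in labelled WT.

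Lipid pathways held calls in both directions, where 7.64% of all genes compared were higher and 11.7% lower. Of 19 ether lipid and platelet-activating factor genes, the inactivating enzyme Pafah2 was higher, at 78.6 CPM in KO, 33.6 in labelled Het and 24.6 in labelled WT. The receptor Ptafr and the phospholipase Pla2g4a were lower, at 52.0 CPM in KO, 117 in labelled Het and 98.9 in labelled WT, and at 34.3 CPM in KO, 65.8 in labelled Het and 69.9 in labelled WT. Genes of the PPARs and of fatty acid oxidation had 3 of 26 higher and 3 lower, among them the dehydrogenase Acadl, higher at 173 CPM in KO, 79.7 in labelled Het and 64.2 in labelled WT, and the carnitine transferase Cpt1a, lower at 65.8 CPM in KO, 112 in labelled Het and 122 in labelled WT. Cholesterol synthesis and uptake had 2 of 22 lower, and LXR targets had 1 of 12 in each direction. The counts of the ether lipid, PPAR, cholesterol and LXR lists were near the shares over all genes. In the eicosanoid list 4 of 12 were lower, among them 5-lipoxygenase, Alox5, at 12.0 CPM in KO, 30.4 in labelled Het and 44.0 in labelled WT, and cyclooxygenase 1, Ptgs1, at 27.7 CPM in KO, 48.2 in labelled Het and 84.4 in labelled WT. The prostaglandin-degrading enzyme Hpgd was the higher gene, at 319 CPM in KO, 136 in labelled Het and 34.3 in labelled WT.

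Lysosomal genes had 5 of 35 higher and 2 lower, where 7.64% of all genes compared were higher and 11.7% lower. Cathepsin H, Ctsh, was among the higher genes, at 935 CPM in KO, 484 in labelled Het and 299 in labelled WT. Cathepsin C, Ctsc, which activates granule proteases, was lower, at 829.5 CPM in KO, 1922 in labelled Het and 1719 in labelled WT. Of 26 genes of glycolysis and hypoxia 7 were lower, among them Ldha, at 326 CPM in KO, 747 in labelled Het and 762 in labelled WT, and 3 higher, among them the mitophagy receptor Bnip3l, at 149 CPM in KO, 62.6 in labelled Het and 44.0 in labelled WT. The iron exporter of phagosomes Slc11a1 was lower, at 70.5 CPM in KO, 274 in labelled Het and 256 in labelled WT, and the ferrochelatase Fech higher, at 101 CPM in KO, 45.0 in labelled Het and 55.3 in labelled WT. In the oxidant list 3 of 28 were higher, with Sod1 at 561 CPM in KO, 299 in labelled Het and 326 in labelled WT, and 2 lower, Txnrd1 and Nfe2l2. The counts of the oxidant list were near the shares over all genes. Matrix and clotting genes had 5 of 19 higher and 3 lower, or 4 and 3 of 16 outside the rule, with the metalloprotease Adam19 at 74.3 CPM in KO, 20.3 in labelled Het and 19.0 in labelled WT, and its relative Adam8 at 21.0 CPM in KO, 201 in labelled Het and 67.4 in labelled WT.

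Targets of the integrated stress response, in which Atf4 raises amino acid supply, had 13 of 26 lower and 1 higher in KO. The median log2 ratio was -1.17 over labelled Het and -0.59 over labelled WT. Asparagine synthetase, Asns, stood at 8.97 CPM in KO (6.25 to 12.5), 140.1 in labelled Het (129 to 152) and 35.5 in labelled WT (28.5 to 43.8). The proline enzyme Aldh18a1 stood at 6.15 CPM in KO, 56.1 in labelled Het and 27.9 in labelled WT, and the leucine transporter Slc7a5 at 40.0 CPM in KO, 329 in labelled Het and 155 in labelled WT. The transcription factors Atf4 and Atf3 and the stress protein gene Nupr1 stood at 30.2, 15.1 and 44.1 CPM in KO, 73.0, 41.9 and 119 CPM in labelled Het and 92.5, 67.0 and 124 CPM in labelled WT. Ddit4, which glucocorticoids also induce, was the higher gene, at 567 CPM in KO, 322 in labelled Het and 109.8 in labelled WT. For 14 of the 26 genes labelled Het and labelled WT stood 1.5-fold or more apart, and Asns was 3.94-fold higher in labelled Het than in labelled WT. In all other barcodes the list's medians were -0.96 and -0.42, and in dividing monocytes they were -1.16 and -0.73.

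The sequence TGATGNAA, an amino acid response element bound by Atf4 with a C/EBP partner, was searched in the same way, on both strands, as TGATGNAA or TTNCATCA, and was again chosen after the values were seen. It was present in 4 of the 10 lower genes of the list that matched a promoter, in 6 of 21 of the list's genes compared (28.6%), and in 3.53% of all promoters. Over all genes with a matched promoter, 2.05% of those compared and 3.37% of those lower in KO held it. The 4 lower genes are shown, on the gene's strand, with the match in capitals, and the other two genes with a match, Slc7a11 and Gars, met neither call.
Atf3, chr1:191183410-191183469, minus strand: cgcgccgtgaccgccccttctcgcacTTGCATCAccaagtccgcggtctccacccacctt
Asns, chr6:7693210-7693269, minus strand: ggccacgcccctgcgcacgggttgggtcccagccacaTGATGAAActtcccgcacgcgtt
Nupr1, chr7:126625547-126625606, minus strand: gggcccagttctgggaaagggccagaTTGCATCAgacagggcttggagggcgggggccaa
Aars, chr8:111033704-111033763, plus strand: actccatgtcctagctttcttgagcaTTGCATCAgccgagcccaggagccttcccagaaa
Aars, the alanyl-tRNA synthetase, stood at 78.1 CPM in KO, 209 in labelled Het and 118 in labelled WT.

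Ribosome biogenesis and polyamine genes had 18 of 22 lower and 0 higher in KO, with a median log2 ratio of -1.20 over labelled Het and -1.14 over labelled WT. Bysl, needed to mature the small subunit, stood at 8.97 CPM in KO (6.25 to 12.5), 94.4 in labelled Het (85.5 to 104) and 104 in labelled WT (91.5 to 117), and the rRNA methyltransferase Nop2 at 25.1 CPM in KO, 120.5 in labelled Het and 128 in labelled WT. Spermidine synthase, Srm, stood at 19.2 CPM in KO, 107 in labelled Het and 70.3 in labelled WT, and ornithine decarboxylase, Odc1, at 35.6 CPM in KO, 145 in labelled Het and 118 in labelled WT. The abundant nucleolar protein gene Npm1 met neither call, with 479 CPM in KO, 492 in labelled Het and 515 in labelled WT. Myc, which drives this programme, stood at 60.2 CPM in KO, 438 in labelled Het and 153 in labelled WT. The D-type cyclins, which growth factors induce, were also lower, with Ccnd1 at 6.66 CPM in KO, 48.6 in labelled Het and 32.7 in labelled WT, and Ccnd2 at 38.2 CPM in KO, 159.9 in labelled Het and 129.6 in labelled WT. Of 13 p53 targets 4 were lower and Trp53inp1 alone was higher, a count near the 7.64% of all genes compared that were higher. The lower ones included the nuclease Aen, at 33.6 CPM in KO, 99.99 in labelled Het and 98.9 in labelled WT. Of 21 endoplasmic reticulum chaperones 3 were lower, near the 11.7% of all genes compared, and 0 higher. The Myc antagonists Mxd1 and Mxd4 and the kinase inhibitor Cdkn1b were higher, at 227, 200.1 and 184 CPM in KO, 85.1, 89.0 and 114 CPM in labelled Het and 67.4, 96.9 and 107 CPM in labelled WT.

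Although members were chosen for low Mki67 and Top2a, they carried genes of DNA synthesis. The S-phase list had 19 of 28 lower and 0 higher in KO, with a median log2 ratio of -0.85 over labelled Het and -0.94 over labelled WT. The replication helicase subunit Mcm3 stood at 129.9 CPM in KO, 291 in labelled Het and 321 in labelled WT, and the replication clamp Pcna at 190.3 CPM in KO, 311 in labelled Het and 326 in labelled WT. The ribonucleotide reductase subunit Rrm2 stood at 22.0 CPM in KO, 66.2 in labelled Het and 193 in labelled WT. Summed per cell, the list's median was 698 CPM in KO, 513 CPM in labelled Het and 635 CPM in labelled WT, but the level below which 90% of members lay was 3854, 7926 and 9098 CPM, so the difference lay in the highest cells. When members were found after thinning to 3000 UMIs, the S-phase list had 1 lower and 3 higher, with median log2 ratios of 0.18 and -0.11 over labelled Het and labelled WT, and ribosome biogenesis genes had 9 lower and 0 higher, with medians of -0.64 and -0.51. When members were limited to those under 1000 CPM over this list, ribosome biogenesis genes had 12 lower and 0 higher, with median log2 ratios of -0.73 over labelled Het and -0.84 over labelled WT, and integrated stress response genes had 11 lower and 2 higher. Of 9 mitosis genes compared 3 were higher and 1 lower in KO, with the ubiquitin-conjugating enzyme Ube2c at 83.0 CPM in KO, 23.6 in labelled Het and 26.2 in labelled WT. For ribosome biogenesis too the per-cell medians were close, at 1217, 1516 and 1401 CPM, and the levels below which 90% of members lay were apart, at 2129, 5592 and 4289 CPM in KO, labelled Het and labelled WT.

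**Figure D4:**
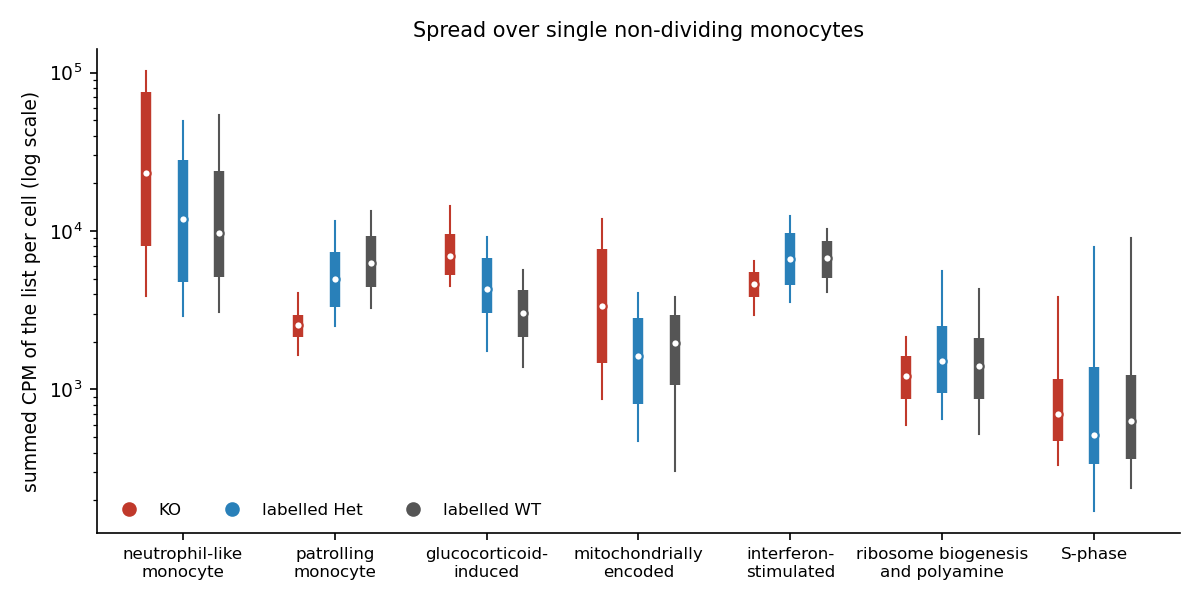
Summed CPM of 7 gene lists in single non-dividing monocytes (y axis, log scale) in KO, labelled Het and labelled WT, for members of at least 3000 UMIs. White points are medians, thick bars run from the lower to the upper quartile and thin bars span the middle 80% of members. Medians of the patrolling list are at 2547, 4947 and 6299 CPM, while those of the S-phase list lie between 513 and 698 CPM.

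The same lists were read in dividing monocytes, which met the rule but for the division cap, and in all other barcodes of the libraries. For patrolling genes the median log2 ratios were -0.48 and -0.82 over labelled Het and labelled WT in dividing monocytes and -0.31 and -0.61 in all other barcodes, against -0.88 and -1.34 in the members. Treml4, at 7.34 CPM in KO, 12.6 in labelled Het and 13.9 in labelled WT in dividing monocytes, and Ace, at 0 CPM in KO, 0.133 in labelled Het and 2.23 in labelled WT, were low there in every library. For neutrophil-like genes they were 0.72 and 1.16 in dividing monocytes and 0.56 and 0.63 in other barcodes, and for mitochondrially encoded genes 1.21 and 1.15, and 0.69 and 1.12. For S-phase genes they were 0.00 and 0.00 in dividing monocytes. For ribosome biogenesis they were -1.11 and -1.01 in dividing monocytes and -1.25 and -1.10 in other barcodes, close to the members. Mpo stood at 1234 CPM in KO, 1301 in labelled Het and 1113 in labelled WT in dividing monocytes, so the low KO level of Mpo in members had no counterpart there. Whether members and other barcodes differ in these ratios was not tested.

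**Figure D5:**
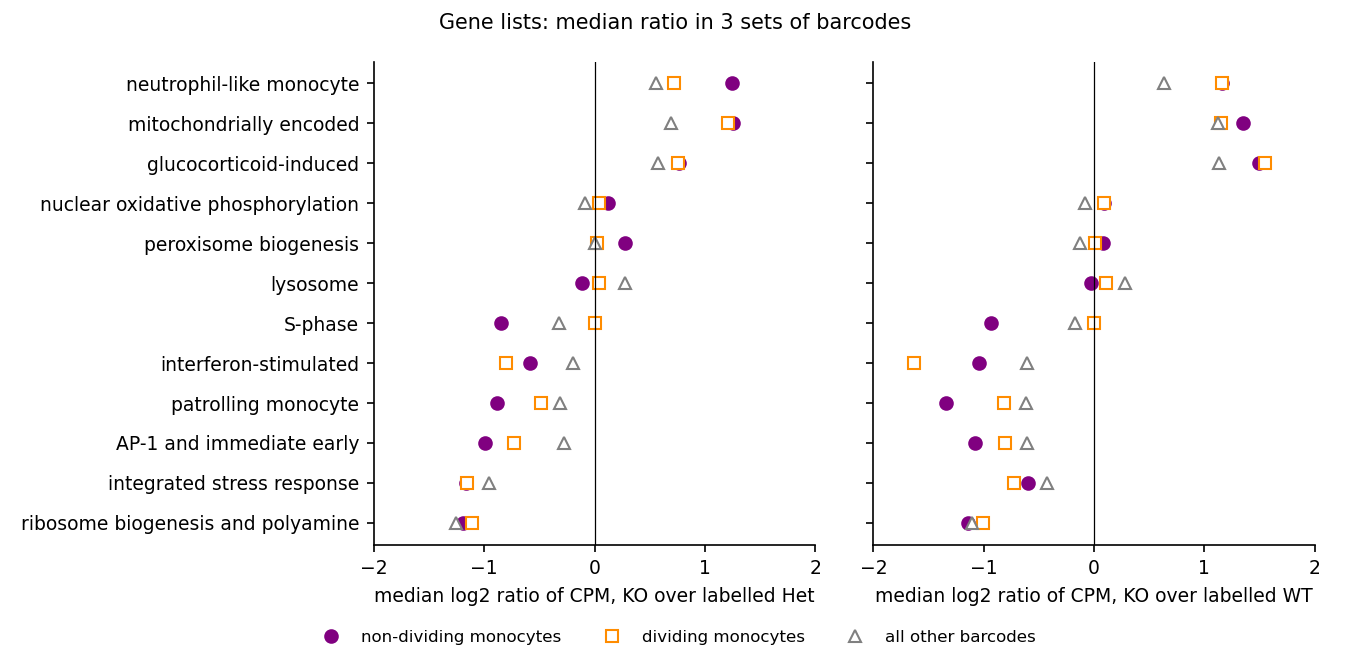
Median log2 ratio of CPM over the genes compared in 12 lists, KO over labelled Het (left) and over labelled WT (right), in non-dividing monocytes (filled circles), dividing monocytes (open squares) and all other barcodes (open triangles). Ribosome biogenesis lies near -1.2 in each set of barcodes over labelled Het, while the patrolling list is lowest in non-dividing monocytes.

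Genes that set the members apart from other barcodes of their own library are a description, since the members were chosen by expression. Among genes that averaged 100 CPM or more and lay outside the rule, the 15 leading ones included the calcium-binding S100a4, at 1115 CPM in KO, 805 in labelled Het and 718 in labelled WT in members and 86.7 CPM in KO, 41.3 in labelled Het and 32.5 in labelled WT in other barcodes. The endocytic receptor Lrp1 stood at 491 CPM in KO, 649 in labelled Het and 1034 in labelled WT in members, and the inhibitory lectin Clec4a3 at 235 CPM in KO, 203 in labelled Het and 193 in labelled WT. Among the 15, Ms4a4a, Ms4a6b and Sirpb1c belong to families with close copies. Ms4a4a stood at 275 CPM in KO, 145 in labelled Het and 50.5 in labelled WT. Against dividing monocytes, the leading genes of members included Maf, Cmklr1, Clec4n, Ecm1, Metrnl and Ace, and the leading genes of dividing monocytes were histones, Mki67, H2afx, Pclaf, Smc4 and Ncapd2.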

How the data were processed

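Fixed CD45+ cells of newborn mouse liver were profiled singly with probes to each gene, in 1 library each for KO, labelled Het and labelled WT. The deposited matrices hold raw UMI counts for 19059 genes in each barcode, made by the authors with Cell Ranger 7.0.0 against mm10 per the submitters' processing notes. The sources used here do not give the version of the probe set or further barcode filters. Values compare the probed part of each transcript, and genes with close copies may share probes.

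Members were found by the rule given above in every barcode. The members, the gene lists, the caps and the named genes were chosen with earlier results of these data known. Doublets were called with Scrublet in scanpy 1.11.5, which marked 298 KO, 186 labelled Het and 273 labelled WT barcodes, of which 6, 0 and 3 were members. They were kept, and left out as an alternative. UMIs were summed over members and scaled to CPM, with exact Poisson intervals, exact conditional binomial intervals for ratios, and log2 ratios with 0.5 counts added. Intervals of share ratios used a log-normal approximation. Genes named averaged 50 CPM or more and were the 15 with the largest smaller log2 ratio in each direction, or were up to 4 called members and the 2 highest members of each list, compared members of the monocyte state lists, and genes leading members over other or dividing barcodes. Some genes of these sets are not reported here. Other genes of the lists (Fos, Jun, Junb, Fkbp5, Tsc22d3, Atf4, Nupr1, Aars, Oas1a, Oas3 and Bst2) and those named beside a motif were chosen after their values were seen.

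Shares of cells carrying a gene were taken after thinning cells to 3000 UMIs, which left 208 KO, 280 labelled Het and 252 labelled WT members. B-lineage barcodes had UMIs of Cd79a, Cd79b and Ebf1 and at most 1 of the 6 monocyte genes. Promoters came from RefSeq tables of GRCm38.p6, the build that mm10 names. Procedures were tested on simulated data. Software was R 4.3.3 and Python 3.11.15 with scipy 1.17.1, pandas 2.3.3 and numpy 2.4.6, and edgeR 4.0.16 and DESeq2 1.42.0 for scaling factors. Alternatives covered depth, the membership rule, doublets, scaling, filters, pseudocount and the weight of cells.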

Additional observations from a re-analysis of the deposited data

How the results depend on the processing

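No paired analysis was possible because each genotype has a single library, and no replicate was left out. Alternatives without the Mmp8 and Mmp9 cap, without Fcgr1 in the rule, and with an S-phase limit of 1000 CPM were chosen after seeing the data, and where a result changed the cause was not tested.

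The share of non-dividing monocytes in KO over labelled Het, 0.715, was 1.26 without the Mki67 and Top2a cap and 1.39 without the Mmp8 and Mmp9 cap, and the share over labelled WT, 0.959, was 1.45 and 1.86. Counts of genes higher, lower and apart between labelled Het and labelled WT were 336, 505 and 410 at a mean of at least 50 CPM and 1508, 2569 and 4318 with no filter, because fewer or more genes were compared. The last count was 1428 at a mean of at least 5 CPM and 1386 after thinning. Other alternatives gave 534 to 786 higher and 659 to 1227 lower genes.

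Of 398 log2 ratios of called named genes, 387 to 398 kept their direction under each alternative and 350 to 397 stayed past 1.5-fold. Many of these genes were named for their large ratios in the same data, so these counts do not speak for all calls. Of all 560 higher and 858 lower genes, 390 and 500 were called again after thinning to 3000 UMIs. Under the S-phase limit 470 and 512 were called again. Those that turned lay among S-phase, histone, division, granule and basophil genes, beside Retnlg of the neutrophil-like list. After thinning, log2 ratios over labelled WT were 0.39 for Mpo, 1.97 for Ctsg, 0.60 for Cdk1, 2.71 for Mcpt8 and 0.39 for Prss34. After thinning, those over labelled Het were 1.82 for Ctsg, 0.33 for Rrm2, 0.11 for Mcm3, 2.83 for Mcpt8, 0.51 for Prss34 and 0.67 for Top2a. Under the S-phase limit they were 0.25 for Ctsg, 0.084 for Ung, 1.67 for Uhrf1, 0.34 for Mcm3, 0.45 for Cdk1 and 0.62 for Hist1h1a over labelled Het. Under that limit they were 1.05 for Ctsg, 0.89 for Ung, 0.36 for Cdk1 and 0.0075 for Top2a over labelled WT. With Mki67 and Top2a below 200 CPM Ctsg was at 0.16 and Mcpt8 at 0.50 over labelled WT, Prss34 was at 0.28 over labelled WT in members of 5000 to 20000 UMIs, and Retnlg was at 0.16 over labelled Het without the Mmp8 and Mmp9 cap.

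Over 12 alternatives, patrolling genes lower in KO numbered 8 to 10, neutrophil-like genes higher 8 to 9, mitochondrially encoded genes higher 9 to 11, glucocorticoid-induced genes higher 8 to 12, interferon-stimulated genes lower 8 to 11, AP-1 genes lower 10 to 13 and ribosome biogenesis genes lower 9 to 20. S-phase genes lower ranged from 1 to 28 and those higher from 0 to 12. The 12 come from the limit on S-phase levels, which selects members by the list itself. Monocyte precursor genes higher numbered 1 to 5 and lower 0 to 5. Depth was lowest in labelled WT, where 3 UMIs over all members correspond to 1.21 CPM.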
